A study of Rattus norvegicus with 6 samples.

Results

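Histone genes were examined in poly(A) RNA-seq libraries of cultured rat mesenchymal stem cells, stromal precursors of bone, cartilage and fat. The members are the rows of the count table whose gene symbol starts as a core or linker histone name (Hist1h to Hist4h, H1f, H1-, H2a, H2b, H3c, H3f, H3-, H4c, H4f or Macroh2a). That rule took 48 of 30560 rows, carrying 41 different symbols. All 6 libraries came from wild-type cells that had received 200 nM doxorubicin, a DNA-damaging anthracycline, for 24 hours, and were then kept in fresh medium for 6 days, a treatment meant to make them senescent. During those days 3 samples, labelled SMNV, received 100 µg/ml of a preparation that the labels do not expand, and the other 3, labelled Dox, received vehicle. Cells without doxorubicin were not analysed here, so every value compares SMNV with Dox among doxorubicin-treated cells. The labels do not say whether replicates came from separate cultures or animals, so the p-values measure only the spread between these samples, which may be technical.

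Histones package DNA into nucleosomes, in which DNA wraps around a core of H2A, H2B, H3 and H4, while linker histone H1 binds where the DNA enters and leaves. Replication-dependent histone genes lie in clusters, mostly lack introns, are transcribed chiefly in S phase, and give mRNAs that end in a stem-loop rather than a poly(A) tail, although some are known in human and mouse cells to give polyadenylated mRNAs when cells leave the cell cycle. Variant histones such as H2A.Z, H3.3, macroH2A and H1.0 are made from polyadenylated mRNAs outside S phase as well. Of the 48 rows, 30 were replication-dependent by symbol, 10 were polyadenylated variants, 7 were germline histones, and H2ax, which is known to give both kinds of mRNA, stood alone.

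The libraries held 18640885 to 21506941 counts, with 15072 to 15322 rows above 0. The first principal component held 83.5% of the variance and separated SMNV from Dox. All 12 stromal marker genes of the label were expressed, of which 6 rose, 4 fell and 2 did not pass. They summed to 97666 to 115138 CPM (counts scaled to library size, with TMM factors) in SMNV and 59042 to 66426 CPM in Dox libraries. Haematopoietic markers summed to 6.31 to 7.41 CPM in SMNV and 7.05 to 8.48 CPM in Dox libraries, with 6 of 9 at 0, Ptprc among them. Endothelial markers summed to 1.31 to 2.50 CPM in SMNV and 1.42 to 3.07 CPM in Dox libraries, with 3 of 8 at 0. Epithelial markers summed to 1.03 to 1.32 CPM in SMNV and 0.683 to 1.16 CPM in Dox libraries. Smooth muscle and pericyte markers summed to 539.7 to 613 CPM in SMNV and 300.0 to 362 CPM in Dox libraries, with Rgs5 and Kcnj8 at 0. Of the 5 tested markers of that list, Smtn (1.79 on the log2 scale) and Lmod1 (0.38) rose, Des fell (-0.26), and Myh11 (0.29) and Cnn1 (-0.07) did not pass. The part of those cells in the histone values was not tested.

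Most of the measurable histone genes were higher in SMNV libraries. Of the 18 rows with enough counts for a test, 13 rose in SMNV, none fell and 5 did not pass (edgeR quasi-likelihood test, two-sided, Benjamini-Hochberg adjusted p under 0.05 over all 12614 tested genes). Among all tested genes 60.4% were called in either direction, 30.5% were higher and 29.9% were lower. The other 30 histone rows were below the filter on low counts, so the 18 are not the whole family. Of the 18, 14 met the filter's cutoff of 0.494 CPM in both groups, 1 met it only over the groups together, and 3 met it through SMNV alone (Hist3h2a, H4f3 and H1f10), which is 16.7% of the 18 against 2.05% of all tested genes. Rows that pass only through the higher group had to differ. Of the other 15 tested rows, 10 rose and 5 did not pass, where 30% of the 12355 genes that passed other than through SMNV alone were higher. Those 10 rows also had no overlap between the 3 SMNV and the 3 Dox values, a property that 32.9% of those genes had with SMNV higher. Above 2-fold higher stood 6 of the 15, against 7.84% of those genes (9 of the 18, against 8.67% of all tested genes). The median log2 fold change was 0.92 over the 15 rows and -0.03 over those genes. In RNA from whole cultures, more cells that express a gene and more RNA per cell cannot be told apart.

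**Figure D1:**
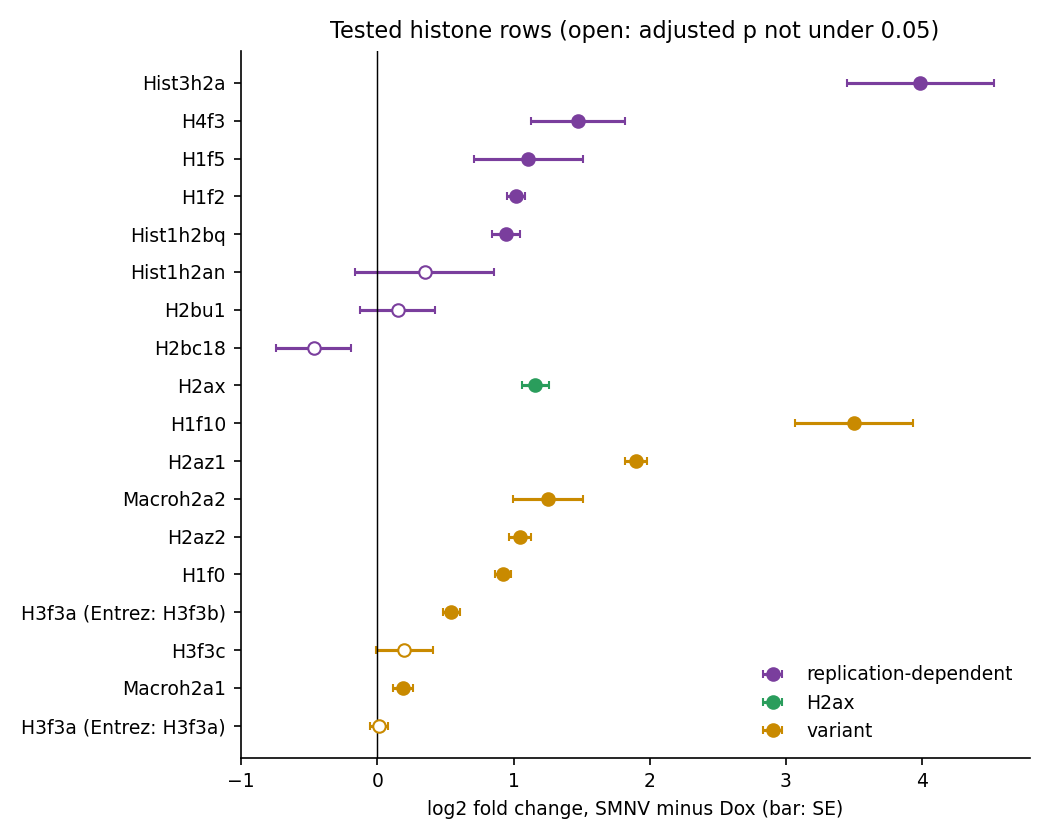
Log2 fold change, SMNV minus Dox, of the 18 tested histone rows (x axis, with the standard error as a bar), coloured by class and filled where the adjusted p was under 0.05. The 13 filled points lie to the right of 0, between 0.19 for Macroh2a1 and 3.99 for Hist3h2a, and H2bc18 is the lowest open point at -0.47.

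Promoter sequences from RefSeq (build GRCr8, 250 bases before to 50 after the annotated start) were matched to 37 of the 48 rows. A set of 4 motifs known from histone and cell-cycle promoters was searched on both strands. The CCAAT box, bound by NF-Y, was found in 83.8% of the matched histone promoters and in 37.5% of all 33469 promoters in the table. The hexamer TATAAA, which helps to position the start of transcription, was found in 45.9% of histone and 14.2% of all promoters. The cell-cycle CHR element was searched as TTTGAA and found in 35.1% of histone and 18.3% of all promoters. The octamer ATTTGCAT, bound by POU2F1 in H2B promoters, was found in 27.0% of histone and 1.78% of all promoters. The windows of H2ac1 and H2bc1 overlap, as do those of H2ac12 and Hist1h2bg, so sites they share, the octamer included, were counted for each row. None of these motifs contains another, although matches can share end letters. Between the classes, the CCAAT box was found in 19 of 20 replication-dependent and 5 of 9 variant promoters, the hexamer in 12 and 2, the CHR letters in 9 and 2, and the octamer in 7 and 1. These matches describe letters in a window, not sites in use. The 6 promoters printed here belong to the rows that hold most histone counts and differ in their response, each 5′ to 3′ on the coding strand with every motif match in capitals. H1f2 (chr17:41820404-41820703, minus strand) and Hist1h2bq (chr17:41869292-41869591, minus strand) are the most abundant replication-dependent rows. A further row shares the symbol Hist1h2bq, and neither has an Entrez number. The Hist1h2bq promoter was therefore assigned by hand to the abundant row, from that row's description. H2az1 (chr2:229028845-229029144, plus strand) and H1f0 (chr7:112473030-112473329, plus strand) are variants that rose. H3f3b (chr10:101757587-101757886, minus strand) and H3f3a (chr13:95076646-95076945, minus strand) encode the same H3.3 protein, and the first rose while the second did not pass. H1f2 holds a single CCAAT box and no other match, and H3f3a holds the same. Hist1h2bq holds 3 CCAAT boxes and the octamer, and H2az1 holds 3 CCAAT boxes with the hexamer and the CHR letters. H3f3b holds 4 CCAAT boxes with the hexamer and the octamer, and H1f0 holds no match.
H1f2: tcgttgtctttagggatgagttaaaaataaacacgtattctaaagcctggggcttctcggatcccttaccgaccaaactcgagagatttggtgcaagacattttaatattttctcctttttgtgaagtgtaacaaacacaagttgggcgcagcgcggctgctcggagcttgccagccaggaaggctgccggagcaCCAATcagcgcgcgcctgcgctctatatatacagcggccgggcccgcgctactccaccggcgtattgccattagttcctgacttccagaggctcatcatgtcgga
Hist1h2bq: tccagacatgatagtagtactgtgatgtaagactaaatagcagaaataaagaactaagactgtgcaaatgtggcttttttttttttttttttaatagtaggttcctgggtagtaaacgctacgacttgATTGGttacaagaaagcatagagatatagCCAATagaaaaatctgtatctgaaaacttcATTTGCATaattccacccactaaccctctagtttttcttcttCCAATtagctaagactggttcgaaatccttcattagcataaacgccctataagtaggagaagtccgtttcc
H2az1: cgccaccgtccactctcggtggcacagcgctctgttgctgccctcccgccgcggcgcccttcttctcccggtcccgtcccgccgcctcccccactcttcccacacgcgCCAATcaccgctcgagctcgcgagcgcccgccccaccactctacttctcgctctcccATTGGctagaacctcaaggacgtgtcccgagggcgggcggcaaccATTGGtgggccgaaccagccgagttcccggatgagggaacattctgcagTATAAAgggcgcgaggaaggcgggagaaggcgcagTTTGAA
H1f0: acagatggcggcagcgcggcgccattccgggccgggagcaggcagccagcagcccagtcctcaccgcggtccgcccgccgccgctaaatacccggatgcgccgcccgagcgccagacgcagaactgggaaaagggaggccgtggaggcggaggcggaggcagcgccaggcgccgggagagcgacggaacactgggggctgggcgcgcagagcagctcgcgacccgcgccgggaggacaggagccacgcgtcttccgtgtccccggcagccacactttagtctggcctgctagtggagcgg
H3f3b: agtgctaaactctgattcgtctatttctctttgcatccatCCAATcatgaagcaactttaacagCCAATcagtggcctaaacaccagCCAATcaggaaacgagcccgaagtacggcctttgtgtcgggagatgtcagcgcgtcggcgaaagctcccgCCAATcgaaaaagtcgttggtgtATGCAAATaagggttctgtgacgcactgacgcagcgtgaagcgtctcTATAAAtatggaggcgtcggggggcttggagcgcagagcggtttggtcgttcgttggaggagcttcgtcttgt
H3f3a: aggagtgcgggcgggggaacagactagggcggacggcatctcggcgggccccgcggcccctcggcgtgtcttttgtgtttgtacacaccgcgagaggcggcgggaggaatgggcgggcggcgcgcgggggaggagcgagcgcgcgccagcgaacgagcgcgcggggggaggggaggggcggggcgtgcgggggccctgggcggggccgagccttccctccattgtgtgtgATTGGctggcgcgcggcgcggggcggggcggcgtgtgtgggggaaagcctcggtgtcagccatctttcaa

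Among the 30 replication-dependent rows, 8 were tested, of which 5 rose in SMNV, none fell and 3 did not pass. Hist3h2a and H4f3 are among those that rose, and they passed the filter through SMNV alone. Of the 6 that passed it otherwise, 3 rose and 3 did not pass, where 30% of such genes were higher. H1f2, the linker histone H1.2, had 158, 158 and 170.0 CPM in the SMNV libraries and 76.1, 81.6 and 82.2 CPM in the Dox libraries. Every SMNV value was above every Dox value, and the level was 2.03-fold higher (log2 fold change 1.02 ± 0.06 SE, edgeR adjusted p = 1.02e-08). Hist1h2bq (row ENSRNOG00000069578), a core histone H2B gene, had 58.0, 49.3 and 60.1 CPM in SMNV and 27.1, 33.0 and 27.1 CPM in Dox libraries, 1.92-fold higher (log2 0.94 ± 0.10 SE, edgeR adjusted p = 1.56e-06). SMNV 2 was the lowest SMNV library and Dox 2 the highest Dox library for this row, and the groups did not overlap. Together these rows held 92.5% ± 1.10 of replication-dependent counts in SMNV and 93.0% ± 0.642 in Dox libraries (SD, n = 3 each). Counting can split reads among near-identical histone copies, which makes a single core histone row less certain than the sum of the class.

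The other 6 tested replication-dependent rows lay below 5 CPM on average, and 3 of them rose. Hist3h2a, a core histone H2A row, had the highest log2 fold change of the 18 tested histone rows, with 7.68, 4.17 and 6.05 CPM in SMNV and 0, 1.05 and 0.0986 CPM in Dox libraries. These are 157, 89 and 120 counts in SMNV and 0, 20 and 2 counts in Dox libraries, so almost all Dox counts came from Dox 2. The log2 fold change was 3.99 ± 0.54 SE (edgeR adjusted p = 1.62e-05) and 6.76 without Dox 2. With no filter on low counts, 4 rows below the filter (Hist1h2ail1, Hist1h2ak, Hist1h2bg and a Hist2h3c2 row) were called with higher fitted values, which rest on few counts. The Entrez number of the Hist3h2a row belongs to Trim17, a neighbouring gene. A separate Trim17 row exists, with 1, 8 and 9 counts in SMNV and 6, 0 and 8 counts in Dox libraries. H4f3 had 2.01, 1.41 and 1.76 CPM in SMNV and 0.488, 0.473 and 0.887 CPM in Dox libraries (log2 1.47 ± 0.34 SE, edgeR adjusted p = 0.00184), with no overlap. Its symbol is that of a core histone H4 gene, but the authors' table describes the row as linker histone H1.3 with a linker histone domain, RefSeq gives Hist1h1d as its synonym, and it is counted here with linker H1. H1f5, linker histone H1.5, had 1.62, 1.31 and 0.655 CPM in SMNV and 0.488, 0.631 and 0.542 CPM in Dox libraries (log2 1.11 ± 0.40 SE, edgeR adjusted p = 0.0254). SMNV 3 lay close to the Dox values, and the call was lost with DESeq2 (adjusted p = 0.0772) and in 4 of the 6 fits that left out a library, with adjusted p up to 0.136.

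The 3 replication-dependent rows that did not pass overlapped between the groups. H2bc18, an H2B gene with the lowest log2 fold change of the tested histone rows, had 2.10, 3.33 and 1.46 CPM in SMNV and 3.41, 3.58 and 2.61 CPM in Dox libraries (log2 -0.47 ± 0.27 SE, edgeR adjusted p = 0.152). SMNV 2 lay within the Dox range, and without that library the fit gave -0.82 (adjusted p = 0.0196). H2bu1, also an H2B gene, had 2.99, 3.23 and 1.71 CPM in SMNV and 1.76, 2.53 and 2.91 CPM in Dox libraries (log2 0.15 ± 0.27 SE, edgeR adjusted p = 0.658). Hist1h2an, an H2A gene, had 0.636, 0.609 and 0.353 CPM in SMNV and 0.536, 0.579 and 0.148 CPM in Dox libraries (log2 0.35 ± 0.51 SE, edgeR adjusted p = 0.573). Counts of 3 to 71 per library lie behind these rows. Differences larger than the standard error could also fail to pass at this depth, as the H2bc18 value did.

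Counts of replication-dependent rows came mostly from long gene models, chiefly H1f2 and Hist1h2bq. The table gives each row a length, and a split at 2000 bases, chosen after the values were seen, left 8 rows of 2241 to 4299 bases and 22 rows of 393 to 1429 bases. Of the long rows 6 were tested, with a median over rows of 37.5 counts per library, and of the short rows 2 were tested (Hist3h2a and H1f5), with a median of 1.92 counts. Long models held 95.7% ± 1.05 of replication-dependent counts in SMNV and 98.8% ± 0.572 in Dox libraries (SD, n = 3 each), and the groups did not overlap. The short models summed to 12.7, 7.26 and 10.5 CPM in SMNV and 1.07, 2.31 and 0.936 CPM in Dox libraries, 7.05-fold higher, most of it from Hist3h2a. Long models summed to 224, 216 and 236 CPM in SMNV and 109.6, 122 and 116 CPM in Dox libraries, 1.95-fold higher. These sums are mostly H1f2 and Hist1h2bq, which held 92.5% of replication-dependent counts in SMNV and 93.0% in Dox libraries. Without them the class averaged 17.7 CPM in SMNV and 8.19 CPM in Dox libraries, of which short models gave 10.2 and 1.44 CPM. The length pattern and the fold of the long models thus rest largely on those rows. A test of the difference between long and short models was not made.

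**Figure D2:**
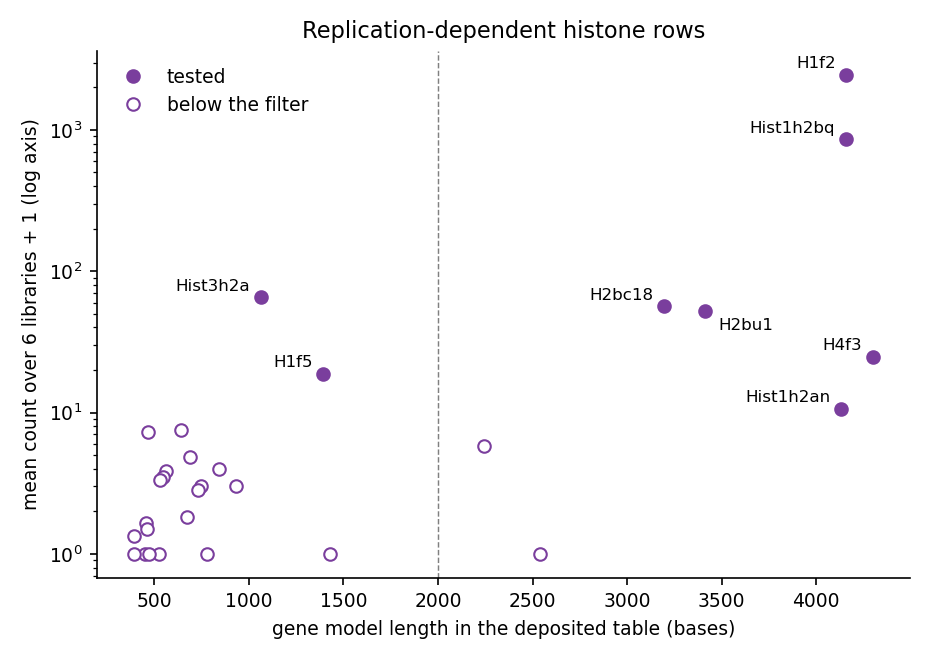
Mean count over the 6 libraries plus 1 (y axis, log scale) against gene model length in bases (x axis) for the 30 replication-dependent rows, filled where the row was tested, with the split at 2000 bases dashed. H1f2 and Hist1h2bq stand highest, and all but 2 of the short models lie under 10 counts.

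Below the filter lay 30 histone rows, of which 22 were replication-dependent, 7 germline and 1 variant. No count was seen in 12 of them after rounding, which allows up to 3 counts per library, counting error only. The other 18 summed to 82, 51 and 90 counts in SMNV and 19, 19 and 9 counts in Dox libraries. More counts lay in SMNV than in Dox for 16 of the 18, fewer for 1, and 4 had counts in SMNV only. The same share over the other rows below the filter was not computed, so these counts have no background beside them. Some rest on very few, such as Hist1h3b with 1, 0 and 1 in SMNV and 0, 1 and 0 in Dox libraries. The SMNV libraries were also deeper, with 20404868 to 21506941 counts in total against 18640885 to 20051566 in Dox libraries. Hist1h2ail1, whose symbol is of H2A form but which the authors' table and RefSeq also annotate as histone H3, had 20, 4 and 15 counts in SMNV and none in the 3 Dox libraries. Hist1h2ak, of H2A type, had 2, 4 and 5 counts in SMNV and none in Dox, and Hist1h2bg, of H2B type, had 4, 7 and 11 counts in SMNV and 1, 0 and 0 counts in Dox libraries. H2aj, the variant below the filter, had 3, 9 and 2 counts in SMNV and 0, 3 and 2 counts in Dox libraries. Germline histones such as H1f6, the testis linker histone, had at most 3 counts in any library, and 5 of the 7 had none.

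Ribosomal and 7SL-type RNAs, which lack a poly(A) tail, were also higher in every SMNV library than in any Dox library. Rows annotated as ribosomal RNA summed to 32.7, 44.3 and 128 CPM in SMNV and 6.09, 1.21 and 2.66 CPM in Dox libraries, nearly all from a 28S row, and SMNV 3 stood far above the other SMNV libraries. The 7SL, 7SK and RNase RNA rows summed to 1.22, 0.891 and 1.01 CPM in SMNV and 0, 0.210 and 0.591 CPM in Dox libraries, without overlap. Small nuclear and nucleolar RNA rows summed to 1.08, 0.281 and 0.605 CPM in SMNV and 0.390, 0.368 and 0.444 CPM in Dox libraries, which overlapped. The part of tailless RNA carried through poly(A) selection in the histone values was not tested.

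H2ax, whose protein is phosphorylated at DNA breaks, had 32.6, 30.0 and 36.1 CPM in SMNV and 15.8, 14.2 and 14.1 CPM in Dox libraries. The groups did not overlap, and the level was 2.23-fold higher (log2 1.16 ± 0.10 SE, edgeR adjusted p = 2.05e-07). The counts do not tell its stem-loop from its polyadenylated mRNA.

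**Figure D3:**
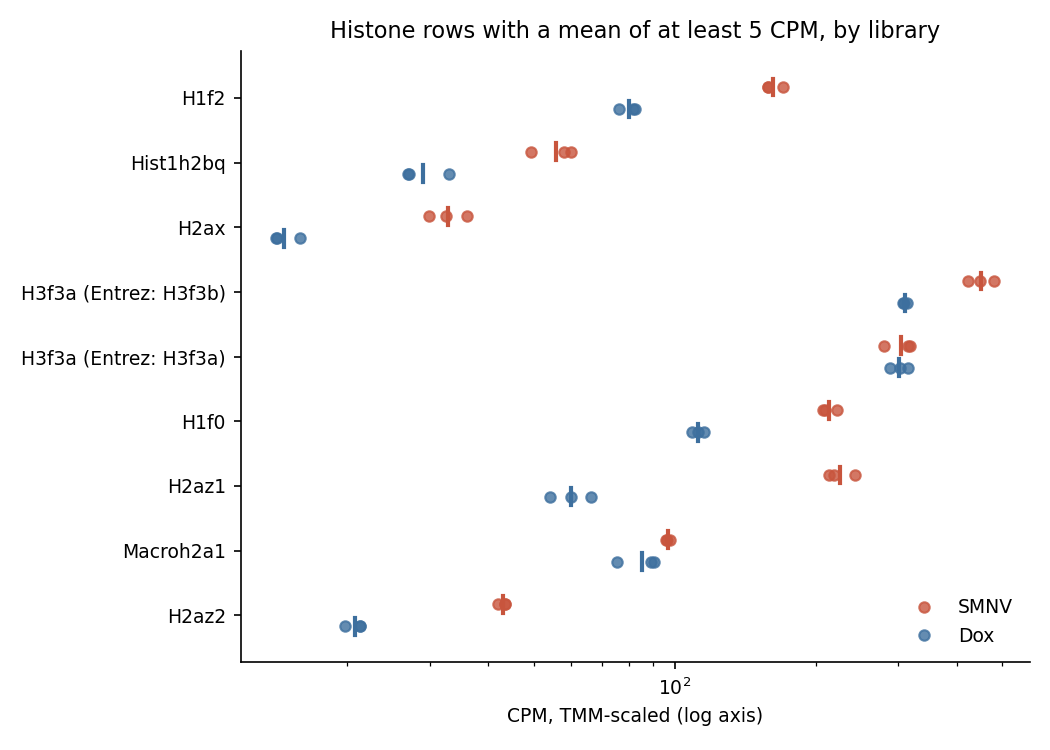
CPM (x axis, log scale, TMM-scaled) in each library for the 9 histone rows with a mean of at least 5 CPM, SMNV above Dox in each row, with the group mean as a bar. The groups overlap only for the H3f3a row whose Entrez number is that of H3f3a, and H2az1 shows the widest gap.

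Among the 10 variant rows 9 were tested, of which 7 rose, none fell and 2 did not pass. H1f10 is among those that rose, and it passed the filter through SMNV alone. Of the other 8, 6 rose and 2 did not pass, where 30% of genes that passed other than through SMNV alone were higher. H2A.Z, an H2A variant found around transcription start sites, is encoded by H2az1 and H2az2, and both rose. H2az1 had 213, 219 and 242 CPM in SMNV and 54.3, 60.1 and 66.4 CPM in Dox libraries, 3.73-fold higher (log2 1.90 ± 0.08 SE, edgeR adjusted p = 1.9e-10). Even the lowest SMNV library was above 3 times the highest Dox library. H2az2 had 42.0, 43.5 and 43.4 CPM in SMNV and 19.8, 21.3 and 21.3 CPM in Dox libraries, 2.07-fold higher (log2 1.05 ± 0.08 SE, edgeR adjusted p = 8.82e-08). Per length, in the authors' TPM, H2az1 averaged 311 ± 17.2 TPM in SMNV and 90.6 ± 9.30 TPM in Dox libraries, and H2az2 averaged 71.5 ± 3.79 TPM in SMNV and 47.6 ± 2.17 TPM in Dox libraries (SD, n = 3 each). The share of H2A.Z TPM that came from H2az1 was 81.3% ± 1.57 in SMNV and 65.5% ± 1.30 in Dox libraries (SD, n = 3 each), with no overlap.

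H3.3, the H3 variant deposited outside replication by the HIRA and DAXX-ATRX chaperones, is encoded by a pair of genes with the same protein product. The table gives the symbol H3f3a to 2 rows, and the Entrez numbers separate them. The row with the Entrez number of H3f3b (ENSRNOG00000006532) had 449, 423 and 479 CPM in SMNV and 306, 313 and 309 CPM in Dox libraries, 1.46-fold higher (log2 0.54 ± 0.06 SE, edgeR adjusted p = 4.08e-06). The row with that of H3f3a (ENSRNOG00000003220) had 280.0, 318 and 314 CPM in SMNV and 303, 287 and 314 CPM in Dox libraries (log2 0.01 ± 0.07 SE, edgeR adjusted p = 0.894). The first pair of groups did not overlap and the second did, and a test of the difference between the rows was not made. Summed under their shared symbol, they gave a log2 fold change of 0.30 (edgeR adjusted p = 0.000536). In TPM, the H3f3b row averaged 575 ± 40.1 TPM in SMNV and 429 ± 5.26 TPM in Dox libraries, and the H3f3a row 626 ± 25.6 TPM in SMNV and 677 ± 31.5 TPM in Dox libraries (SD, n = 3 each). The H3f3b row thus held 47.6% ± 2.42 of H3.3 TPM in SMNV and 38.6% ± 1.28 in Dox libraries. H3f3c was counted in that H3.3 total by its symbol, and whether it encodes the same protein was not examined. With 55 to 72 counts in SMNV and 49 to 55 counts in Dox libraries, H3f3c did not pass (log2 0.20 ± 0.21 SE, edgeR adjusted p = 0.429).

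The linker variants rose, H1f10 as a row that passed the filter through SMNV alone. H1f0, the H1.0 protein that is known to accumulate in cells that have stopped dividing, had 208, 209.7 and 222 CPM in SMNV and 109, 116 and 112 CPM in Dox libraries, 1.89-fold higher (log2 0.92 ± 0.06 SE, edgeR adjusted p = 1.65e-08). H1f10, the H1.10 protein, had 3.13, 2.02 and 3.02 CPM in SMNV and 0.0488, 0.368 and 0.296 CPM in Dox libraries, which are 64, 43 and 60 counts against 1, 7 and 6 counts (log2 3.50 ± 0.43 SE, edgeR adjusted p = 6.78e-06). Both groups of libraries were separate for each gene. The 10 linker H1 rows, the 9 with H1f symbols and H4f3, summed to 381 ± 14.2 CPM in SMNV and 194 ± 6.82 CPM in Dox libraries (SD, n = 3 each), 1.97-fold higher. H1f0 held 64.2% ± 1.36 of linker H1 TPM in SMNV and 69.5% ± 1.13 in Dox libraries. H1f2 held 27.7% ± 0.445 in SMNV and 28.0% ± 0.446 in Dox libraries (SD, n = 3 each). The H1f0 share was lower in every SMNV library than in every Dox library, and the H1f2 share overlapped.

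MacroH2A proteins carry a large non-histone domain and are known from silent chromatin. Macroh2a1 had 97.9, 95.8 and 96.2 CPM in SMNV and 75.3, 90.5 and 89.2 CPM in Dox libraries. The groups did not overlap, with Dox 1 the lowest library, and the gain was 1.14-fold (log2 0.19 ± 0.07 SE, edgeR adjusted p = 0.0399). That call was lost in 5 of the 6 fits that left out a library, with 0.10 without Dox 1, and on log2 TPM (adjusted p = 0.0905, limma). Macroh2a2 had 3.23, 2.53 and 3.98 CPM in SMNV and 1.41, 1.53 and 1.13 CPM in Dox libraries, 2.38-fold higher (log2 1.25 ± 0.26 SE, edgeR adjusted p = 0.000632). It held 3.82% ± 0.809 of macroH2A TPM in SMNV and 2.04% ± 0.433 in Dox libraries (SD, n = 3 each).

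Ordered by TPM in the Dox libraries, the H3f3a and H3f3b rows of H3.3 stood first, followed by H1f0 and H2az1 with means of 90.7 and 90.6 TPM, which did not differ beyond their spread. Macroh2a1 came next with 80.9 ± 1.18 TPM in SMNV and 70.6 ± 9.90 TPM in Dox libraries, then H2az2. H3f3c, placed with the H3.3 rows by its symbol alone, averaged 6.41 ± 0.532 TPM in SMNV and 6.14 ± 0.540 TPM in Dox libraries. H1f2, the highest replication-dependent row, averaged 68.2 ± 2.62 TPM in SMNV and 36.5 ± 1.54 TPM in Dox libraries, and Hist1h2bq 23.5 ± 2.76 TPM in SMNV and 13.3 ± 1.58 TPM in Dox libraries (SD, n = 3 each). In SMNV libraries H2az1 stood above H1f0, by 311 ± 17.2 TPM to 158 ± 4.86 TPM, and the libraries' values did not overlap.

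Set against each other, both classes were higher in SMNV. Replication-dependent rows summed to 237, 223 and 246 CPM in SMNV and 111, 124 and 117 CPM in Dox libraries, 2.01-fold higher. Variant rows summed to 1299, 1317 and 1407 CPM in SMNV and 872, 893 and 916 CPM in Dox libraries, 1.50-fold higher. Neither sum overlapped between the groups. Replication-dependent rows made up 14.6% ± 0.434 of histone counts in SMNV and 11.4% ± 0.527 in Dox libraries (SD, n = 3 each), and 6.12% ± 0.549 of histone TPM in SMNV and 3.86% ± 0.405 in Dox libraries. The lowest SMNV share of counts, 14.2%, was above the highest Dox share, 12.0%. Without the rows that passed the filter through SMNV alone, the median log2 fold change was 0.65 over 6 replication-dependent rows and 0.73 over 8 variants. With them it was 0.98 over 8 and 0.92 over 9, so the order of the classes by their medians turned with those rows. The H3f3a row, which did not pass, holds many of the counts in the variant sum. Being scores over chosen rows, these sums and shares have no p. All histone rows together held 0.157% ± 0.00620 of all counts in SMNV and 0.105% ± 0.00250 in Dox libraries.

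**Figure D4:**
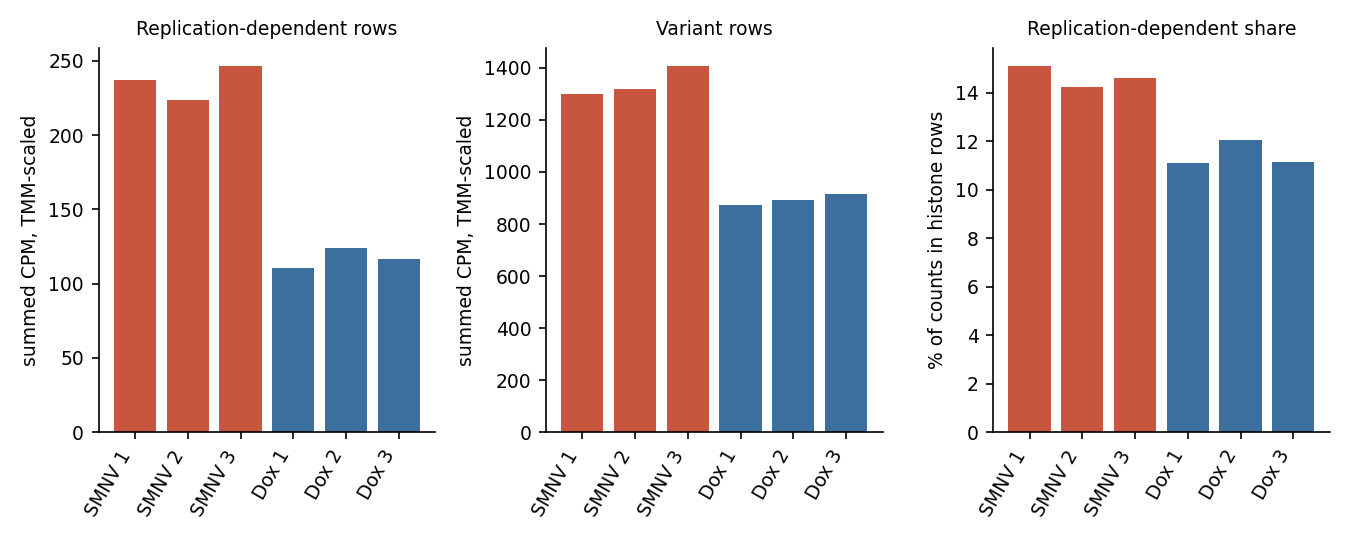
Summed CPM of the 30 replication-dependent rows (left), of the 10 variant rows (middle) and the replication-dependent share of all histone counts in percent (right), 1 bar per library. In each panel the 3 SMNV bars stand above the 3 Dox bars, at 223 to 246 CPM against 111 to 124 CPM in the left panel.

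Genes of DNA replication, which accompanies replication-dependent histone expression in S phase, were also mostly higher. Of 30 tested rows of an S phase list, 20 rose, 2 fell and 8 did not pass, where 30.5% of all tested genes were higher and 29.9% lower, and the list's median log2 fold change was 0.34. Tk1, thymidine kinase, averaged 113 CPM in SMNV and 47.7 CPM in Dox libraries (log2 1.25 ± 0.07 SE). Mcm2, a replicative helicase subunit that also binds H3 and H4, averaged 123 CPM in SMNV and 68.0 CPM in Dox libraries (log2 0.85 ± 0.07 SE). Pold1, the catalytic subunit of DNA polymerase delta, rose by 1.35 and Fen1, a flap endonuclease, by 0.93 on the log2 scale. Cdc6, which loads the helicase at origins, fell, with 11.3 CPM in SMNV and 18.8 CPM in Dox libraries (log2 -0.73 ± 0.11 SE). Prim1, a primase subunit, fell slightly (log2 -0.20 ± 0.07 SE, edgeR adjusted p = 0.0342), and that call was lost with the replicate block (adjusted p = 0.0524) and in 4 of the 6 fits without a library. The part of replicating cells in the histone values was not tested.

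Factors that act on histone genes and histone mRNA were called in both directions. Of 16 tested genes of histone gene transcription, 3 rose, 6 fell and 7 did not pass, with a median log2 fold change of -0.09. Beside the 30.5% higher and 29.9% lower among all tested genes, this count and those of the next 2 lists lie near the background. Ccna2, cyclin A2, averaged 137 CPM in SMNV and 63.5 CPM in Dox libraries (log2 1.11 ± 0.08 SE), Nfyc, a subunit of the CCAAT-binding factor NF-Y, averaged 39.1 CPM in SMNV and 22.9 CPM in Dox libraries (log2 0.77 ± 0.10 SE), and Hinfp, which activates H4 genes, rose by 0.41. The other NF-Y subunits did not pass, with log2 fold changes of 0.09 ± 0.07 SE for Nfya and 0.04 ± 0.09 SE for Nfyb (edgeR adjusted p = 0.341 and 0.749), and were named after their values were seen. Ccne2, cyclin E2, fell, with 23.9 CPM in SMNV and 36.7 CPM in Dox libraries (log2 -0.62 ± 0.09 SE), as did Casp8ap2, a component of histone locus bodies (log2 -0.44 ± 0.08 SE). Npat, the coactivator of histone genes that cyclin E and CDK2 phosphorylate, was named after its value was seen and fell too, with 46.0 CPM in SMNV and 56.9 CPM in Dox libraries (log2 -0.31 ± 0.08 SE, edgeR adjusted p = 0.00325).

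In the list of histone mRNA 3′ processing and decay, 6 of 27 tested genes rose, 10 fell and 11 did not pass, with a median of -0.11. Upf1, a helicase that acts in the decay of histone mRNA, averaged 61.7 CPM in SMNV and 30.7 CPM in Dox libraries (log2 1.01 ± 0.09 SE). Sympk, symplekin, the scaffold of the cleavage complex, rose by 0.72 and Snrpb, an Sm protein, by 0.69 on the log2 scale. Pabpn1, the nuclear poly(A)-binding protein, rose by 0.45 and Snrpf, also an Sm protein, by 0.37. Cpsf1, a subunit of the complex that reads the polyadenylation signal, rose by 0.33. The calls of Hinfp, Snrpf and Cpsf1 were lost on log2 TPM (limma adjusted p = 0.0575, 0.0955 and 0.134), and that of Snrpf also without SMNV 3 (0.0855). Tut7, which adds uridines to histone mRNA during its decay, fell, with 90.4 CPM in SMNV and 126 CPM in Dox libraries (log2 -0.48 ± 0.06 SE). Slbp, which binds the histone stem-loop, is also a member of the S phase list. It was named after its value was seen and did not pass, with 54.3 CPM in SMNV and 59.2 CPM in Dox libraries (log2 -0.13 ± 0.07 SE, edgeR adjusted p = 0.142). Lsm10 and Lsm11, the Lsm proteins specific to the U7 particle that cuts histone pre-mRNA, did not pass either (log2 0.11 ± 0.11 and 0.05 ± 0.12 SE).

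Histone chaperones and remodellers split. Of 41 tested rows 17 rose, 14 fell and 10 did not pass, with a median of 0.12. On log2(TPM + 1) that median was -0.05, where 13 rose and 16 fell. All tested genes moved the same way on that scale, to a median of -0.10 from -0.01. There 39.8% of called genes were higher, against 50.4% in the main fit. Cenpa, the H3 variant of centromeres, which the symbol rule for the members does not take, averaged 32.2 CPM in SMNV and 10.6 CPM in Dox libraries (log2 1.60 ± 0.09 SE, edgeR adjusted p = 4.46e-09). Hjurp, the chaperone that deposits it, averaged 77.5 CPM in SMNV and 33.4 CPM in Dox libraries (log2 1.21 ± 0.08 SE). Asf1b, a chaperone of H3 and H4 linked to proliferation, averaged 37.4 CPM in SMNV and 17.1 CPM in Dox libraries (log2 1.13 ± 0.09 SE), whereas its paralogue Asf1a fell by a smaller amount (log2 -0.29 ± 0.12 SE, edgeR adjusted p = 0.0409), a call lost with DESeq2 (adjusted p = 0.0730), limma-voom, the replicate block and 5 of the 6 fits without a library. The other falling members were a Tspyl1 row (-1.98 on the log2 scale), Ubn2 (-0.62), Atrx (-0.52), Hat1 (-0.43), Ncl (-0.39), Supt6h (-0.34), Actr6 (-0.33), Spty2d1 (-0.32), Npm1 (-0.31), Rbbp4 (-0.29), Nap1l1 (-0.26), Ino80 (-0.24) and Supt16h (-0.23). Atrx and Ubn2 act in H3.3 deposition, Hat1 acetylates new H4, Npm1 and Ncl are abundant nucleolar chaperones, and Supt16h belongs to the FACT complex. Leaving out SMNV 3 ended the edgeR calls of Supt16h (adjusted p = 0.0611) and Ino80 (adjusted p = 0.0557). Ino80 also missed the threshold when SMNV 2 was dropped (adjusted p = 0.0707). In the same pathway Hira and Daxx, the H3.3 chaperones, rose, with log2 fold changes of 0.40 ± 0.09 and 0.57 ± 0.12 SE. Znhit1 and Vps72, which act in H2A.Z deposition, rose by 1.25 and 0.56, while Actr6, which acts in the same step, fell (-0.33). Hira, Daxx, Znhit1 and Vps72 were named after their values were seen.

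**Figure D5:**
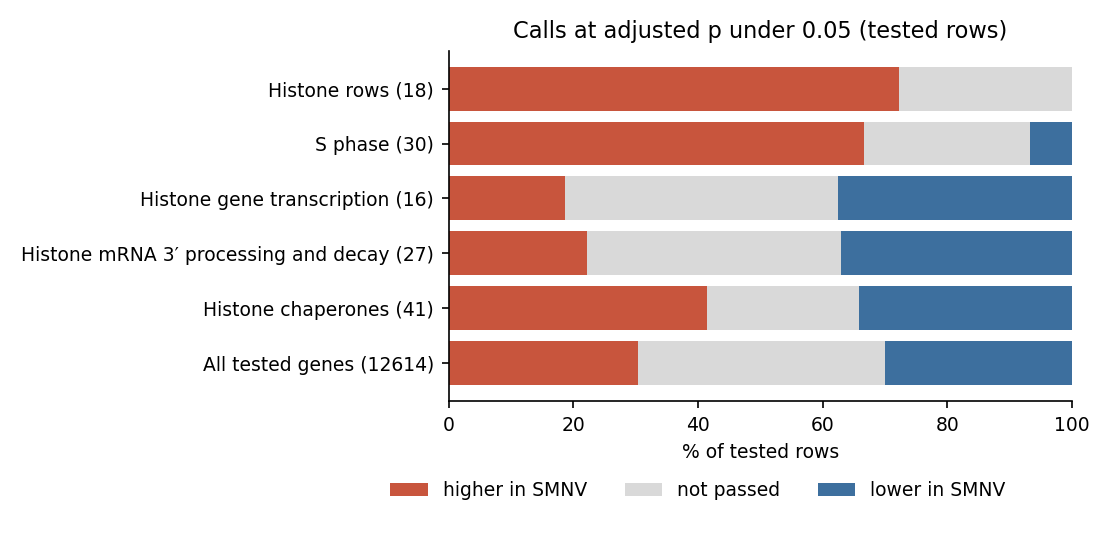
Percent of tested rows (x axis) that were higher in SMNV, not passed or lower in SMNV at an adjusted p under 0.05, for the histone rows, the 4 gene lists and all 12614 tested genes, with the number tested in parentheses. The histone and S phase bars are mostly higher, while the other 3 lists hold both directions.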

How the data were processed

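Poly(A) RNA from 6 libraries was sequenced by the authors after TRIzol extraction and VAHTS Universal V6 library preparation, per the labels' protocols. The tools fastp, HISAT2 and HTSeq and the build mRatBN7.2 are listed without roles or versions, per the submitters' processing notes. Annotation release and strand setting were not given in the sources used here, so overlapping and antisense genes cannot be told apart. The authors deposited estimated counts per gene, not normalized, in which 17.9% to 18.8% of values above 0 had decimals, and TPM. The TPM were not the counts scaled by a fixed length per row. Hist1h2bo had 9 counts and 0.61 TPM in SMNV 1, but 2 counts and 0.89 TPM in Dox 2. How the TPM were computed was not given in the sources used here. These estimated counts were rounded, and the design, which assumed whole counts, was kept.

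Rows passing filterByExpr were tested with edgeR 4.0.16 in R 4.3.3 (TMM, glmQLFit and glmQLFTest, group as the only term, all 6 libraries), with Benjamini-Hochberg adjustment over 12614 genes and a threshold of 0.05. The SE is the absolute log2 fold change over the square root of F. CPM were computed from the counts with TMM factors. The alternatives were other scalings, no filter, DESeq2 1.42.0, limma 3.58.1 on counts (voom) and on log2(TPM + 1) or log2(TPM + 0.1), a replicate block, summed symbols and leaving out each library. The fit was tested on simulated data. Replicate pairs differed beyond counting noise.

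Histone classes and gene lists were set by symbol, and the members and lists were chosen with earlier results of these data known. Rows of at least 5 CPM get every library's value, the others are given by range and counts with the largest rise and fall, and each list gives the 4 smallest p and all called members against its majority. The values of the other tested histone rows were added after they were seen. Some list genes were not analysed here.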

Additional observations from a re-analysis of the deposited data

How the results depend on the processing

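None of the 18 tested histone rows reversed a call under the alternatives. Of 252 values for single histone rows under them, 239 kept direction and side of the threshold, 12 lost the call (H1f5 and Macroh2a1) and 1 gained it (H2bc18 without SMNV 2), and 15 of the 18 rows kept theirs throughout. Of 490 values for 35 named list rows, 467 kept theirs and 23 lost the call. The count of changed histone rows, 13, was 12 to 17 under other scalings, filters and tools, and 11 to 14 when a library was left out, with 4 to 6 replication-dependent and 6 to 7 variant rows. With no filter on low counts 9 replication-dependent rows were changed against 5, since rows of few counts entered the test, and DESeq2 gave 7. The variant sum's log2 difference was 0.39 on TPM against 0.59 on CPM. For the replication-dependent sum without H1f2 and Hist1h2bq, an alternative added after seeing the data, it was 2.002 on TPM against 1.11 on CPM. Much of this SMNV sum is Hist3h2a, which passed the filter through SMNV alone. That row gave 5.97 of 17.7 CPM in SMNV and 0.384 of 8.19 CPM in Dox libraries on average. In TPM it gave 12.8 of 32.3 in SMNV and 0.893 of 8.05 in Dox libraries. The part of model length in the gaps between TPM and CPM was not tested. On log2(TPM + 1) the median over all tested genes was -0.10 against -0.01, and 39.8% of called genes were higher against 50.4%. Replicate numbers did not pair the libraries (correlations of deviations of 0.01, -0.15 and 0.01 for equal numbers, -0.17 to 0.18 for the others). The fit with a replicate block called 13 histone rows, 5 of them replication-dependent and 7 variant, as without it. Depth limits the 30 rows below the filter, of at most 20 counts in a library.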
